A study of Mus musculus with 16 samples.

Results

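The IL-1 family of cytokines and receptors was followed here through 10 genes in mouse esophagus: the ligands Il1a, Il1b, Il18 and Il33, the antagonists Il1rn and Il18bp, and the receptors Il1r1, Il1r2, Il1rl1 and Il1rap. They were chosen by symbol from the 41411 genes of the deposited table, and all 10 were found there and passed the filter on low values (at least 5 in at least 4 libraries), Il1b and Il18bp mainly through OXA libraries. RNA came from the esophagus of C57BL/6 mice, either wild type (WT) or carrying the Il13ra1-/- genotype (labelled KO). The mice were treated with the hapten oxazolone (OXA), as a model of eosinophilic esophagitis (EoE), or with vehicle. This gave 4 groups of 4 libraries: WT with vehicle, WT with OXA, KO with vehicle and KO with OXA. The Il13ra1 deletion was not described as limited to a cell type. Age, sex, dose and duration were not given in the labels, and each p-value measures the spread between these libraries only.

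IL-1 family cytokines are made largely by epithelial and myeloid cells, and several act as alarm signals when a barrier is injured. IL-1α and IL-1β bind IL-1R1, which pairs with the shared chain IL-1RAcP (Il1rap) and signals through MyD88 and IRAK kinases to NF-κB. IL-33 uses ST2 (Il1rl1) with the same shared chain and drives type 2 immune cells, while IL-18 has a receptor pair of its own. Each arm has a natural brake: IL-1Ra (Il1rn) occupies IL-1R1 without signalling, IL-1R2 is a decoy that captures IL-1, and IL-18BP binds IL-18 in solution. Il13ra1 encodes a chain of the receptor through which IL-13 and IL-4 signal in epithelium, with STAT6 as the transcription factor.

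Promoter windows are shown for the 4 members in which a STAT form was found, so they were picked by match and not by result. STAT6 binds sites of the form TTCNNNNGAA, and STAT factors in general bind TTCNNNGAA. Neither form was found in the windows of Il1a, Il1b, Il1r1, Il1rl1 and Il18bp, which passed a test described below. The window at the gene start of Il1rn held neither form, and Il1rn passed none of the main tests below. Each window runs from 250 bases before to 50 bases after an annotated start, is taken from RefSeq on GRCm38.p6, lies on the plus strand and is written 5′ to 3′, with capitals marking the match. The windows are chr9:50554450-50554749 for Il18, chr19:29924863-29925162 for Il33, chr2:24345041-24345340 for an internal start of Il1rn (8.44 kb into the gene), and chr1:40085843-40086142 for Il1r2, also an internal start (12.0 kb into the gene as the files' annotation gives it). The Il18 start used is 127 bases before the gene's first base in that annotation, and distances below are from the RefSeq starts.
Il18: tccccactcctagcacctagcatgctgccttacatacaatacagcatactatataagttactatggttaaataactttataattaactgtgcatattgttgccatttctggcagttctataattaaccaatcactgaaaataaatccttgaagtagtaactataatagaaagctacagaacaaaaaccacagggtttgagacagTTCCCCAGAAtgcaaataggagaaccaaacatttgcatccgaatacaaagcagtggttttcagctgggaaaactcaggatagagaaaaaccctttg
Il33: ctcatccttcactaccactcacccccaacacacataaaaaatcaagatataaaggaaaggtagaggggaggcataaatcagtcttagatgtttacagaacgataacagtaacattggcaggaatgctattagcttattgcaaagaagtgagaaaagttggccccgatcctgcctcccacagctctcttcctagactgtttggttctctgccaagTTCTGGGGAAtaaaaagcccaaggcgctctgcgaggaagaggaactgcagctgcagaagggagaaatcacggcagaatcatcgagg
Il1rn: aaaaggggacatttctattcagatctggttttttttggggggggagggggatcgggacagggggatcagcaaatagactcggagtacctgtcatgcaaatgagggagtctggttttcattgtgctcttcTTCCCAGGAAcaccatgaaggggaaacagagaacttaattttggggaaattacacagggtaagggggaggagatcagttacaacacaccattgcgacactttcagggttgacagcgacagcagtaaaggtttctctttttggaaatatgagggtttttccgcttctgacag
Il1r2: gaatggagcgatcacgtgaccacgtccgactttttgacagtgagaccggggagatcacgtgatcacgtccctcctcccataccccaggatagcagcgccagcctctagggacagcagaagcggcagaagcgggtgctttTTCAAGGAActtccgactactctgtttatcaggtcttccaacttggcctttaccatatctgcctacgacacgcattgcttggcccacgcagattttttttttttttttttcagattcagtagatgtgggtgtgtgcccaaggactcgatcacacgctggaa

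Il18 held TTCCCCAGAA 46 bases upstream of its start, and Il33 held TTCTGGGGAA 36 bases upstream. The Il1rn window held TTCCCAGGAA 121 bases upstream. All are forms of TTCNNNNGAA, which was found in 4 of the 15 windows that the table gives for the 10 members (2 of these 4 are overlapping Il1rn windows with the same match) and in 6.95% of all 32851 windows. The shorter form TTCNNNGAA was found in 1 of the 15, as TTCAAGGAA 111 bases upstream of the internal Il1r2 start, and in 8.30% of all windows. Both forms read the same on the 2 strands. The AP-1 form TGANTCA was in 2 of the 15, Il1rn and Il1a, against 7.81% of all. An NF-κB form, GGGNNNNNCC on either strand, was in 5 of the 15 against 50.8% of all. The interferon form GAAANNGAAA, on either strand, was in 1 of the 15, Il1rap, against 3.44%. These matches describe letters in a window and do not show binding. Il18 and Il33, which carry matches of the same form at a similar distance, moved in opposite directions in WT mice, as described next.

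OXA against vehicle in WT mice asks what the model does to these genes when the receptor is intact. Of the 10 members, 4 rose (Il1b, Il33, Il1rl1 and Il18bp), 2 fell (Il18 and Il1r2) and 4 did not pass the test. Over all 16748 genes tested, 18% were called higher and 16% lower, and the median log2 fold change was 0.10, against -0.0014 for the members. Values below are normalized counts, that is, read counts divided by a size factor per library. They are listed for replicates 1 to 4 of each group, and group means carry the SD (n = 4). Each gene was tested with limma, p-values were adjusted by Benjamini-Hochberg over every tested gene, and the differences were taken between means of log2(value + 1). Those of low genes therefore depend on the pseudocount and can differ from the ratio of the group means in either direction.

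The decoy receptor Il1r2 (chr1:40074079-40125231, plus strand) and the inhibitor Il18bp had the largest WT differences, which were within their errors of each other in size. Il1r2 values were 654, 819, 1098 and 1123 in WT vehicle libraries and 51.5, 63.6, 78.1 and 79.9 in WT OXA libraries. In KO mice they were 1011, 1033, 1021 and 1224 with vehicle and 2567, 1151, 1764 and 1049 with OXA. The WT OXA libraries were far below all the other 12, whereas the KO groups overlapped. In WT, Il1r2 fell by 3.72 ± 0.24 (SE) on the log2 scale, or 13.2-fold, from 924 ± 227 to 68.3 ± 13.3 (adjusted p = 9.55e-10). In KO the change was 0.52 ± 0.24 (adjusted p = 0.334).

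The cytokine Il18 (chr9:50554827-50581840, plus strand) followed the same outline. It read 894, 1035, 671 and 729 in WT vehicle and 149, 135, 106 and 240.3 in WT OXA. In KO it read 883, 950.1, 886 and 1318 with vehicle and 1848, 1603, 1781 and 860.4 with OXA. Again the WT OXA libraries stood below all others. Il18 fell by 2.44 ± 0.25 on the log2 scale in WT, 5.42-fold, from 832 ± 165 to 157 ± 58.0 (adjusted p = 5.56e-07). In KO the change was 0.55 ± 0.25 (adjusted p = 0.32).

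Il18bp (chr7:102014885-102018690, minus strand), the soluble inhibitor of IL-18, went the other way. Its values were 27.5, 3.09, 3.65 and 0 in WT vehicle and 72.2, 58.0, 43.2 and 68.0 in WT OXA. KO mice gave 16.6, 6.90, 8.37 and 1.64 with vehicle and 163, 70.2, 26.0 and 59.1 with OXA. Every OXA library except KO OXA replicate 3 was above every vehicle library, and WT vehicle replicate 1 was the highest of the vehicle libraries. Il18bp rose by 3.64 ± 0.77 on the log2 scale in WT (adjusted p = 0.0012), and the size ranged from 2.64 to 4.50 over 27 alternative settings. These values rest on 24 vehicle and 548 OXA reads in WT, and on 37 and 244 in KO. The 3′ end of Il18bp overlaps Numa1, which is coded on the plus strand and had means of 351, 616, 345 and 274 in the same group order. Whether counting used strand is not given in the sources used here, so reads of this pair could not be told apart.

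Il33 (chr19:29925114-29960718, plus strand), an epithelial alarm cytokine, read 938, 1193, 769.9 and 729 in WT vehicle and 1506, 1568, 1413 and 2183 in WT OXA. The WT groups did not overlap. KO libraries read 819.7, 1064, 809 and 1096 with vehicle and 1696, 1326, 1263 and 801 with OXA, where 3 libraries were above all KO vehicle libraries and replicate 4 was below them. Il33 rose 1.84-fold in WT, by 0.88 ± 0.21 on the log2 scale (adjusted p = 0.00306). The KO change was 0.39 ± 0.21 (adjusted p = 0.426).

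Il1rl1 (chr1:40429570-40465415, plus strand), which encodes the IL-33 receptor ST2, rose with its ligand in WT. It read 30.3, 52.5, 82.1 and 31.2 in WT vehicle and 102, 129, 222 and 88.6 in WT OXA. KO values were 53.6, 88.0, 58.6 and 46.0 with vehicle and 112, 167, 63.1 and 55.1 with OXA. The WT groups did not overlap, while 2 of the KO OXA libraries lay within the KO vehicle range. The log2 change was 1.47 ± 0.39 in WT (adjusted p = 0.00613) and 0.58 ± 0.39 in KO (adjusted p = 0.536). Il1rl1 has 5 annotated coding transcripts with 4 distinct 3′ ends, and the membrane and soluble forms of ST2 could not be told apart in a gene count.

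Il1b (chr2:129364570-129371139, minus strand), the ligand made mainly by myeloid cells, was close to the detection limit with vehicle. It read 9.64, 9.27, 0 and 6.69 in WT vehicle and 29.0, 27.7, 27.9 and 49.1 in WT OXA. KO mice gave 2.92, 3.45, 1.52 and 1.64 with vehicle and 18.3, 31.0, 16.1 and 5.52 with OXA. Within each genotype all OXA libraries were above all vehicle libraries, although KO OXA replicate 4 was below 3 of the WT vehicle libraries. These are 16, 296, 10 and 56 reads in the 4 groups in that order. Il1b rose by 2.63 ± 0.68 on the log2 scale in WT (adjusted p = 0.00535), with sizes of 1.82 to 2.96 over 27 alternative settings.

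The remaining members did not pass the test in WT. Il1a (chr2:129299610-129309972, minus strand), an alarm cytokine held in epithelial cells, read 86.7, 127, 32.8 and 51.3 in WT vehicle and 60.6, 28.2, 36.5 and 59.4 in WT OXA. Its log2 change was -0.57 ± 0.34 (adjusted p = 0.213), and without WT vehicle replicate 3 it was -0.90 (adjusted p = 0.0419). The antagonist Il1rn (chr2:24336853-24351494, plus strand) was at 1387 ± 158 with vehicle and 1172 ± 191 with OXA, a log2 difference of -0.25 ± 0.24 (adjusted p = 0.452). The signalling receptor Il1r1 (chr1:40225080-40317257, plus strand) was at 131 ± 63.4 and 148 ± 66.1, with a log2 difference of 0.25 ± 0.37 (adjusted p = 0.642). The shared chain Il1rap (chr16:26581704-26730117, plus strand) was at 319.7 ± 84.6 and 259 ± 29.0, with a log2 difference of -0.27 ± 0.20 (adjusted p = 0.31). So among the receptors the decoy fell and ST2 rose, while the differences of IL-1R1 and of the shared chain were within the spread of the libraries. No setting tried ended any of the 6 calls in WT. When library totals were set equal in place of the authors' size factors, the median of all genes moved from 0.10 to 0.41 and the share of called genes that were higher from 53.0% to 77.3%, and the small differences of Il1rn and Il1rap changed sign (0.071 and 0.046).

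**Figure D1:**
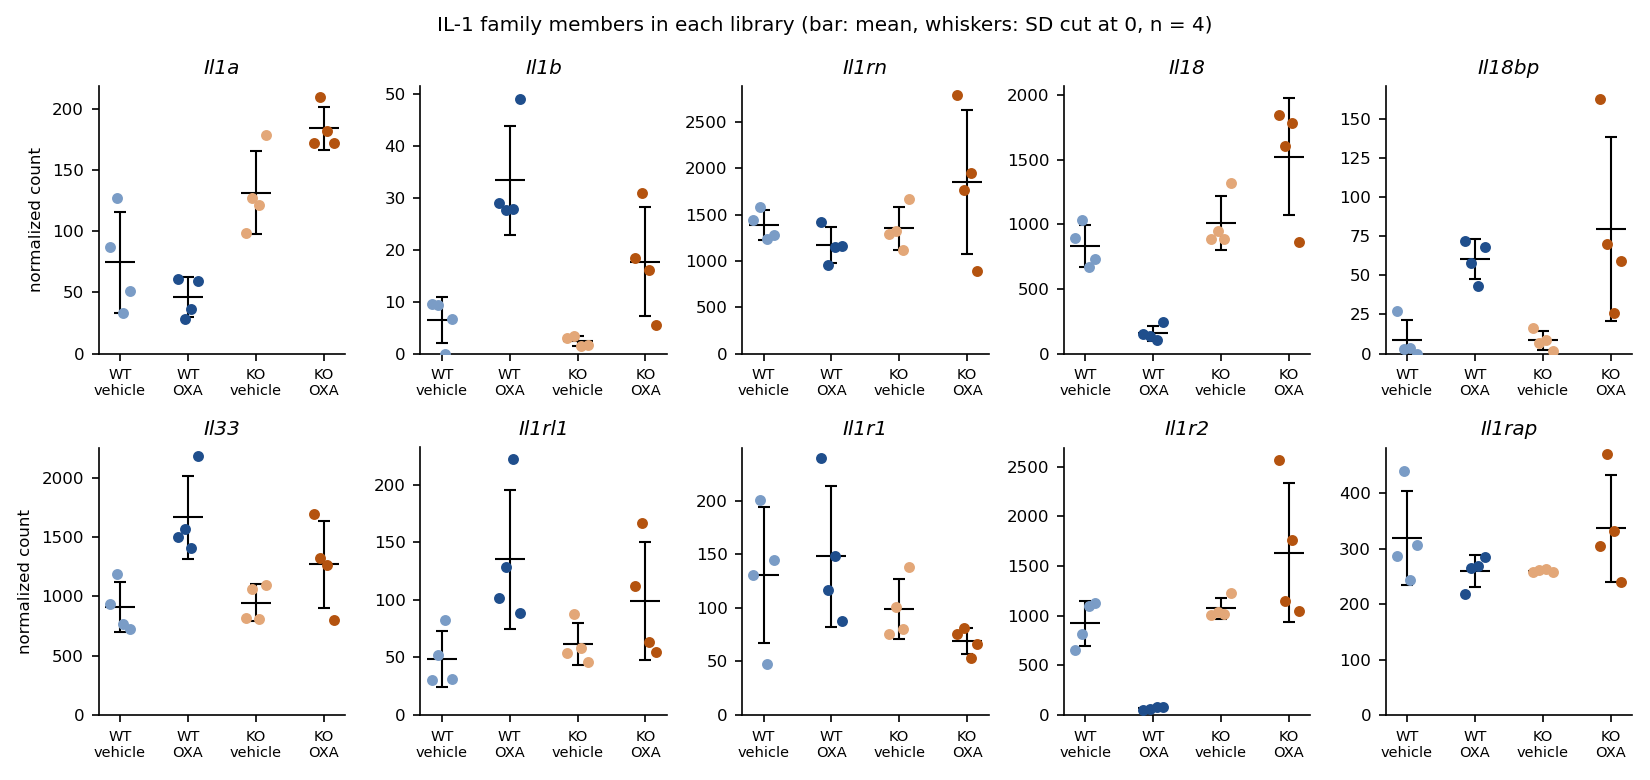
Normalized count of each of the 10 IL-1 family genes in the 16 libraries, by group (points are libraries, the horizontal bar is the mean and the whiskers are the SD, n = 4; each panel has its own linear axis from 0). Il18 and Il1r2 sit lowest in the 4 WT OXA libraries, and Il1b and Il18bp are low in both vehicle groups.

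The libraries differed in ways that touch these values. In WT, depth was 7.64 ± 1.70 mega-reads (M) with vehicle (5.61 to 9.55) and 23.3 ± 3.63 M with OXA (20.2 to 27.3). In KO it was 12.9 ± 3.64 M with vehicle (7.91 to 16.5) and 11.6 ± 2.71 M with OXA (8.82 to 15.2). When every library was thinned to 5.61 M, all 6 WT calls were kept. KO OXA replicate 4 stood apart, with 23730 genes detected against 16633 to 21763 in the others and correlations of log values of 0.941 to 0.951 with its group, where the 21 other pairs within groups had 0.966 to 0.988. It was the lowest of its group for every member except Il1r1 and Il18bp. Il13ra1 itself went from 191 ± 39.8 with vehicle to 721 ± 123 with OXA in WT and from 50.1 ± 14.2 to 99.1 ± 56.9 in KO, so reads remained in the libraries labelled KO; which exons were deleted is not given in the sources used here.

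Cell markers moved beside the members, and in whole tissue fewer cells of a type and less RNA per cell cannot be told apart. Of 9 squamous epithelial markers in WT, 2 rose and 3 fell with OXA. Their summed level went from between 1268180 and 1871050 to between 438211 and 723904. Krt4 alone made up most of these sums (926888 to 1440620 in WT vehicle and 290427 to 498260 in WT OXA). It did not pass the test (limma adjusted p = 0.0532), so the sums mainly follow 1 keratin. In KO the sums were 1340650 to 1650240 with vehicle and 1242760 to 2720260 with OXA, and none of the 9 passed the test. Krt78, a keratin of upper layers, fell by 2.53 in WT on the log2 scale (adjusted p = 3.04e-08), and Krt14, of the basal layer, rose by 2.04 (adjusted p = 4.22e-07). Among 7 tested neutrophil markers 5 rose and 1 fell in WT, with sums of 428 to 1236 before and 2429 to 3426 after. S100a9 alone made up most of these WT sums (267 to 983 before and 1996 to 2828 after). Of the rises, Retnlg and Ltf passed the filter on low values only through WT OXA libraries. The fall was in Camp (-1.89, limma adjusted p = 0.00785), and Cxcr2 differed by -0.68 (adjusted p = 0.0687). Ly6g and Mpo were at 0 in both vehicle groups and stayed near 0 with OXA. Ly6g was found only in WT OXA replicate 4 (4.86) and KO OXA replicate 3 (1.24). Mpo was found only in WT OXA replicate 1 (1.45), and Ngp was at 0 in all OXA libraries. In KO 1 of the 7 rose, and the sums were 387 to 694 with vehicle and 498 to 2048 with OXA. Macrophage and dendritic cell markers rose in both genotypes, 8 of 11 in each, with sums of 4047 to 6583 and 11963 to 12879 in WT and of 2600 to 3697 and 7939 to 17348 in KO. Of 9 markers of T cells and type 2 innate lymphoid cells 6 rose in WT and none in KO, with sums of 1975 to 5209 and 3716 to 4143 in WT and of 3959.7 to 5045 and 3466 to 4581 in KO. Rora alone made up most of these sums (1946 to 5096 in WT vehicle). Without it the sums of the other 8 were 29.0 to 158 and 435 to 598 in WT and 109.97 to 207 and 94.1 to 436 in KO, so they did not overlap in WT. Foxp3, which rose in WT, passed the filter on low values only through WT OXA libraries. Mast cell and basophil markers, cells that also carry ST2, gave 1 rise among 5 tested in WT and none in KO, with sums of 62.0 to 243 and 132 to 176 in WT and of 44.8 to 219.9 and 59.9 to 412 in KO; Ms4a2 and Mcpt8 were at 0 in both vehicle groups. All 5 endothelial markers rose in WT (652 to 738 before, 1067 to 1819.6 after) and none in KO (535 to 714 and 267 to 645). Of 5 fibroblast markers none passed in either genotype. All 12 interferon response genes rose in both, with sums of 989 to 4140.3 and 6252 to 9535 in WT and of 792 to 1079 and 4260.5 to 14207 in KO. The 5 eosinophil markers were too low to test, with Epx at 0 in all libraries. Their sums were 0 to 2.23 with vehicle and 8.23 to 15.1 with OXA in WT, without overlap. In KO they were 0.76 to 6.56 and 1.24 to 10.7. The part of these shifts in the members' values was not tested.

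OXA against vehicle in KO mice asks which of these changes occur without Il13ra1. Only Il18bp passed the test, with a rise of 3.11 ± 0.77 on the log2 scale (adjusted p = 0.0399). Among all genes tested 1.81% were called higher and 0.0896% lower, and the members' median was 0.51 against -0.015 over all genes. That single call was kept under 12 of 27 alternatives. It was lost with equal library totals, a pseudocount of 0.5, no filter, array weights or thinned reads (adjusted p of 0.0557 to 0.115), without WT vehicle replicate 3, without any 1 of the WT OXA libraries, and without KO vehicle replicate 2, 3 or 4 or KO OXA replicate 1 or 2 (up to 0.191).

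Il1b had a difference of 2.30 ± 0.68 on the log2 scale in KO, close to its size in WT, and an adjusted p of 0.0983. It passed with edgeR (adjusted p = 0.0395) and DESeq2 (0.00438) on the recovered reads, without KO OXA replicate 4 (0.0222) and without WT vehicle replicate 3 (0.0177). Il18 and Il1rn passed as rises only without KO OXA replicate 4: Il18 was then at 0.81 (adjusted p = 0.0395) and Il1rn at 0.67 (adjusted p = 0.032), against 0.55 and 0.36 ± 0.24 (adjusted p = 0.54) with all libraries. Il1rn read 1291, 1328, 1119 and 1669 in KO vehicle and 2794, 1763, 1947 and 895 in KO OXA, so 3 OXA libraries were above all vehicle libraries and replicate 4 below them. Il1a differed by 0.51 ± 0.34 (adjusted p = 0.542), Il1r1 by -0.49 ± 0.37 (adjusted p = 0.59) and Il1rap by 0.33 ± 0.20 (adjusted p = 0.491).

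The interaction, the KO effect minus the WT effect, tests directly whether the response to OXA differed by genotype. It passed for 2 members. Il1r2 differed by 4.24 ± 0.34 on the log2 scale (adjusted p = 6.79e-08) and Il18 by 2.99 ± 0.35 (adjusted p = 1.12e-05), and both calls were kept under all 27 alternatives. Over all genes tested 10.1% had a higher and 7.67% a lower effect in KO, and the members' median was 0.13 against -0.10 for all genes. The 4 members that rose in WT were not called different between genotypes: Il33 gave -0.49 ± 0.30 (adjusted p = 0.269), Il1rl1 -0.89 ± 0.55 (0.278), Il1b -0.33 ± 0.96 (0.85) and Il18bp -0.53 ± 1.09 (0.78). These standard errors leave room for sizeable differences. Il33 passed with equal library totals (-0.94, adjusted p = 0.0125), a scaling that moved the median of all genes from -0.10 to -0.53 and the share of calls that were higher from 56.9% to 20.3%. Il1a passed without WT vehicle replicate 3 (1.41 against 1.08 ± 0.49, adjusted p of 0.0354 against 0.131), and Il1rn without KO OXA replicate 4 (0.92 against 0.61 ± 0.34, adjusted p of 0.0121 against 0.23).

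**Figure D2:**
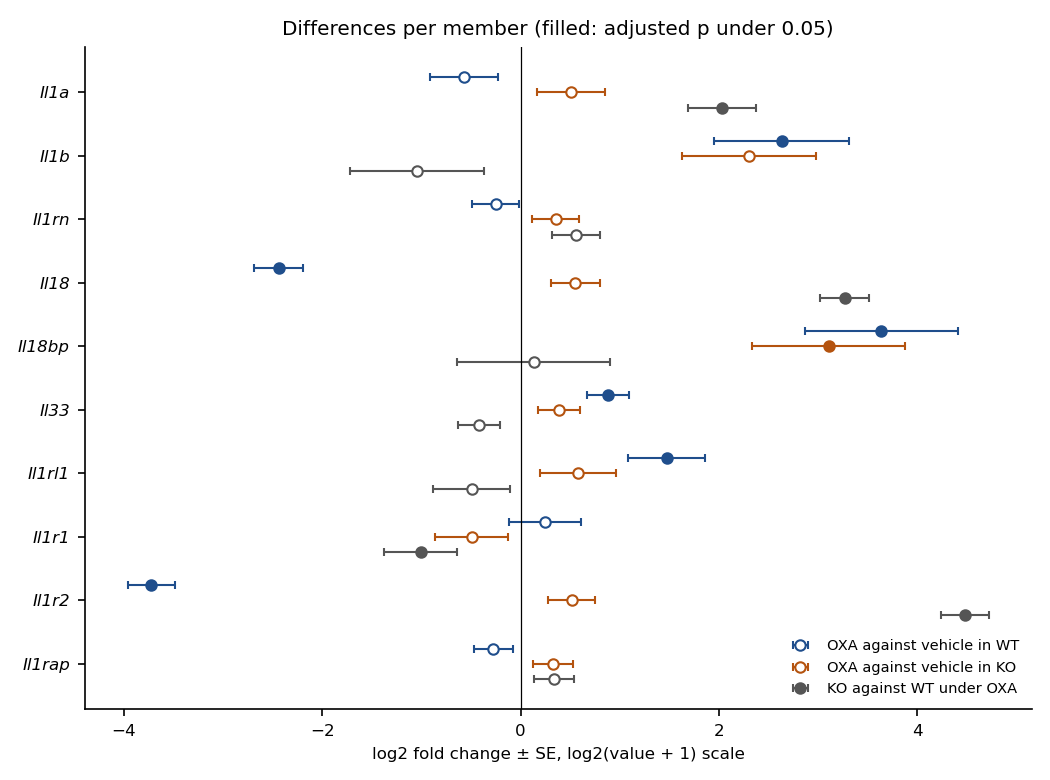
Log2 fold change ± SE of the 10 members on the log2(value + 1) scale for OXA against vehicle in WT (blue), the same in KO (orange) and KO against WT under OXA (grey), with filled points for an adjusted p under 0.05. Il1r2 and Il18 lie far to the left in WT and far to the right in KO against WT, and Il18bp and Il1b lie to the right in both genotypes.

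KO against WT under vehicle asks whether loss of Il13ra1 alone moved the family. None of the 10 members passed the test (limma), as against 0.0358% of all genes higher and 0.0239% lower, and at an unadjusted p under 0.05 only Il1a differed. Il1a read 98.5, 127, 122 and 179 in KO vehicle libraries, against 32.8 to 127 in WT vehicle, a log2 difference of 0.96 ± 0.34 (unadjusted p = 0.0116, adjusted p = 0.441). The other 9 had log2 differences between -0.71 (Il1b) and 0.67 (Il18bp), and the members' median was 0.16 against 0.022 for all genes. No alternative, edgeR and DESeq2 included, called a member here.

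KO against WT under OXA compares the inflamed tissue of the genotypes, and shares its WT OXA and KO OXA libraries with the comparisons above. Il1r2, Il18 and Il1a were higher in KO and Il1r1 was lower. In all 14.6% of genes tested were higher and 12.9% lower, and the members' median was 0.24 against -0.047. Il1r2 was 22.4-fold higher (4.49 ± 0.24 on the log2 scale, adjusted p = 5.39e-11) and Il18 9.65-fold higher (3.27 ± 0.25, adjusted p = 8.84e-09). Il1a read 172, 209.6, 182 and 172 in KO OXA, where every library was above all WT OXA libraries, the highest of which was at 60.6. It was 4.10-fold higher (2.04 ± 0.34, adjusted p = 0.000181). These 3 calls were kept under all alternatives. The antisense-strand gene Gm14023, which overlaps the 3′ end of Il1a, had means of 38.1 (vehicle) and 18.1 (OXA) in WT and of 33.9 and 37.9 in KO.

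Il1r1 read 239.9, 116, 148 and 87.5 in WT OXA and 75.2, 81.0, 53.2 and 66.2 in KO OXA. The groups did not overlap, by a narrow margin, and the difference was -1.01 ± 0.37 (adjusted p = 0.0465). This call was kept under 13 of 27 alternatives. It was lost with quantile normalization, no filter or thinned reads and without 1 of 11 libraries in turn, the largest adjusted p being 0.17 without WT OXA replicate 1; leaving out WT vehicle replicates 2 to 4, WT OXA replicate 4 or KO vehicle replicate 4 kept it. Il33 differed by -0.42 ± 0.21 (adjusted p = 0.152) and passed with equal library totals (-0.83, adjusted p = 0.00145) and quantile normalization (-0.59, adjusted p = 0.021). Under equal totals the median of all genes moved from -0.047 to -0.44, and the share of calls that were higher fell from 53.1% to 19.9%. Il1rn differed by 0.56 ± 0.24 (adjusted p = 0.0886) and passed with DESeq2 (0.0262), array weights (0.0317) and without KO OXA replicate 4 (0.00117). Il1b, Il1rl1, Il1rap and Il18bp had differences of -1.04 ± 0.68, -0.49 ± 0.39, 0.34 ± 0.20 and 0.13 ± 0.77, none of which passed (adjusted p of 0.224 to 0.927).

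Set in order, the mean level of Il18 was lowest in WT OXA (157), followed by WT vehicle (832), KO vehicle (1009) and KO OXA (1523). The order was the same for Il1r2 (68.3, 924, 1072 and 1633) and for Il1a (46.2, 74.4, 131 and 184). In Il18 and Il1r2 the only neighbours that passed a test were WT OXA and WT vehicle. In Il1a no neighbours did. For Il33 the order was WT vehicle (907), KO vehicle (947), KO OXA (1272) and WT OXA (1667), with no called step between neighbours. Il1rl1 had the same order as Il33 (49.0, 61.5, 99.2 and 135), also with no called step.

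Because the family pairs agonists with brakes, 4 ratios were taken within each library as log2((value A + 1)/(value B + 1)), and group means were compared by a two-sided exact permutation test. With 4 libraries against 4 there are 70 assignments and the smallest p is 0.0286. Over the 16 tests that p becomes 0.0508 after Benjamini-Hochberg adjustment, so no ratio passed with all libraries. With 1 WT vehicle library left out, 9 ratio values that use that group passed (adjusted p of 0.0416 or 0.0457). Among them were the WT shifts of Il18bp to Il18, Il1r2 to Il1r1 and Il1rn to Il1b without WT vehicle replicate 2 or 3. The smallest possible p was still 0.0286 there. Its adjusted value was lower only because more ratios reached that smallest p, so these passes give no stronger evidence for the named shifts. Tags are counted per gene, so only shifts of a ratio between groups are compared, not its size. The ratio of the inhibitor Il18bp to Il18 went from -7.41 ± 1.89 in WT vehicle to -1.33 ± 0.33 in WT OXA, a shift of 6.08 (exact p = 0.0286). In KO it went from -7.02 ± 1.40 to -4.47 ± 1.13, a shift of 2.56 (exact p = 0.0571). Under OXA the genotypes differed by -3.14 (exact p = 0.0286), with no overlap.

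The mean ratio of decoy to signalling receptor, Il1r2 to Il1r1, went in opposite directions in the genotypes. Neither shift in this ratio passed after adjustment (exact permutation test, adjusted p = 0.0508 for each). It went from 2.95 ± 1.11 to -1.03 ± 0.86 in WT, a shift of -3.97, and from 3.46 ± 0.27 to 4.47 ± 0.67 in KO, a shift of 1.01 (exact p = 0.0286 for each). Under OXA it was 5.50 higher in KO (exact p = 0.0286). The ratio of the antagonist Il1rn to Il1b shifted by -2.88 in WT, from 8.0 ± 1.52 to 5.12 ± 0.44, and by -1.95 in KO, from 8.67 ± 0.49 to 6.72 ± 0.64 (exact p = 0.0286 for each). Il1rn to Il1a shifted by 0.32 in WT (exact p = 0.486) and by -0.15 in KO (exact p = 0.743). KO and WT differed in it by -1.48 with OXA (exact p = 0.0286) and by -1.0 with vehicle (exact p = 0.0571).

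**Figure D3:**
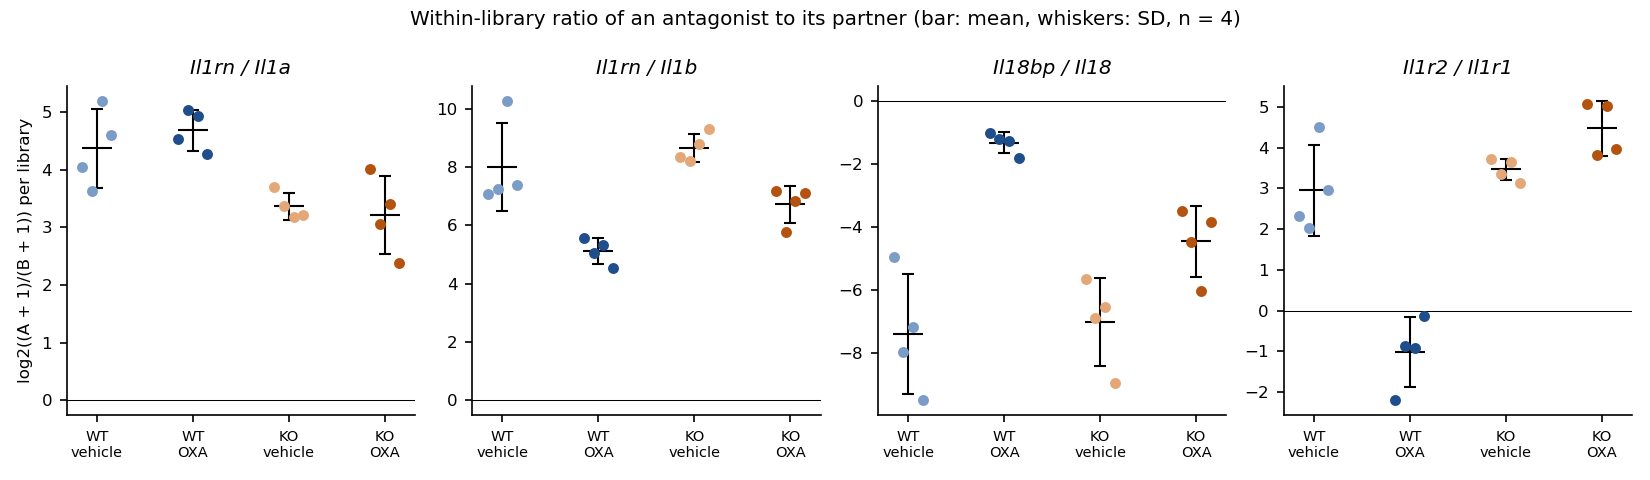
Within-library ratio of each brake to its partner, as log2((A + 1)/(B + 1)), in the 16 libraries (points are libraries, the horizontal bar is the mean and the whiskers are the SD, n = 4; panels have separate axes). Il1r2 to Il1r1 is below 0 in the 4 WT OXA libraries alone, and Il18bp to Il18 is highest there.

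The other ligands listed are the epithelial IL-36 agonists, their antagonist and Il1f10 (IL-38), which share the chromosome 2 cluster with Il1rn. Of the 4 tested, 1 fell in WT and none rose, and none passed in KO. That gene was Il1f5, the IL-36 receptor antagonist, which went from 457 ± 114 to 98.7 ± 50.7 in WT and from 619 ± 158 to 1088 ± 296 in KO. It fell by 2.35 ± 0.33 on the log2 scale in WT (adjusted p = 2.50e-05), differed by 0.80 ± 0.33 in KO (adjusted p = 0.273), and its interaction was 3.15 ± 0.47 (adjusted p = 0.000149). Both calls on Il1f5 were kept under all alternatives. The agonists Il1f6, Il1f8 and Il1f9 gave WT differences of 0.38 ± 0.26, -0.67 ± 0.29 and 0.24 ± 0.21 (adjusted p of 0.274, 0.0832 and 0.421). With equal library totals Il1f6 (0.70, adjusted p = 0.0199) and Il1f9 (0.56, adjusted p = 0.0247) passed as rises, and Il1f8 passed as a fall with array weights (-0.86, adjusted p = 0.0325) and without WT OXA replicate 4 (-0.93, adjusted p = 0.0192). In KO, Il1f6 gave 0.99 ± 0.26 (adjusted p = 0.0533) and Il1f9 0.45 ± 0.21 (adjusted p = 0.353). Il1f6 passed there under 7 of 27 alternatives: edgeR (0.0346), DESeq2 (0.00477), array weights (0.0238), and without WT vehicle, WT OXA, KO vehicle or KO OXA replicate 4 (0.0446, 0.0469, 0.0479 and 0.00363). Il1f9 passed without KO OXA replicate 4 (0.72, adjusted p = 0.0141). Under OXA, Il1f8 was higher in KO than in WT by 1.51 ± 0.29 (adjusted p = 0.000684) and Il1f6 by 0.92 ± 0.26 (adjusted p = 0.0117; 0.0885 with equal library totals). The Il1f8 interaction was 1.33 ± 0.41 (adjusted p = 0.0313), a call kept under 17 of 27 alternatives. Il1f10 was too low to test, with 7 vehicle reads and 1 OXA read in WT and 1 and 5 in KO.

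Among the 6 other receptors 3 rose in WT and 1 in KO. Il1rl2, the IL-36 receptor, rose in WT from 405 ± 66.8 to 929.5 ± 81.9, by 1.21 ± 0.19 (adjusted p = 6.50e-05), so this receptor rose where its antagonist ligand fell. In KO it was at 425 ± 35.8 and 507 ± 161 (difference 0.20 ± 0.19, adjusted p = 0.679), and the interaction was -1.0 ± 0.26 (adjusted p = 0.0126). Il18r1, the binding chain for IL-18, rose from 4.50 ± 6.30 to 23.9 ± 5.28 in WT (3.03 ± 0.79, adjusted p = 0.00618). It passed the filter on low values only through the WT OXA libraries, the group where it was highest. In KO it was at 1.93 ± 1.71 and 5.72 ± 2.64 (adjusted p = 0.476), and its interaction did not pass (-1.68 ± 1.12, adjusted p = 0.325). Il18rap, the signalling partner of Il18r1, rose in both, from 6.96 ± 4.24 to 33.4 ± 7.70 in WT (adjusted p = 0.0115) and from 2.78 ± 3.95 to 25.7 ± 15.7 in KO (adjusted p = 0.0139). The KO call was lost with no filter, with only the groups compared, and without KO vehicle replicate 1 or 4 or KO OXA replicate 2 (adjusted p of 0.0509 to 0.0841). Sigirr and Il1rapl1 passed in no comparison. Il1rapl2 was higher in KO than in WT under OXA (2.33 ± 0.70, adjusted p = 0.0172), a call lost without KO OXA replicate 4 (1.47, adjusted p = 0.0641).

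Neighbouring genes of the family gave different calls. The receptor genes Il1r2, Il1r1, Il1rl2, Il1rl1, Il18r1 and Il18rap lie within 477.6 kb of chromosome 1 (chr1:40074079-40551705). In WT the first of them fell, Il1r1 gave no call and the other 4 rose. The chromosome 2 group of Il1f8, Il1f9, Il1f6, Il1f5, Il1f10 and Il1rn spans 198.3 kb (chr2:24153161-24351494), and of its tested genes only Il1f5 was called in WT.

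Downstream signalling was examined with 16 genes from receptor adaptor to NF-κB. Of the 15 tested 6 rose in WT and none fell (median 0.15, all genes 0.10), where 18% of all genes were called higher and 16% lower. In KO 1 rose (median 0.033, all genes -0.015), where 1.81% of all genes were called higher and 0.0896% lower. The interaction was called lower in KO for 4 and was not called for 11. Nfkb1, an NF-κB subunit, rose from 877 ± 40.7 to 2021 ± 157 in WT (1.20 ± 0.14, adjusted p = 3.22e-06) and was at 907 ± 74.8 and 936 ± 207 in KO. Rela, the transactivating subunit, rose 2.42-fold in WT, from 122 ± 20.2 to 297 ± 33.1 (adjusted p = 6.01e-05). Their interactions were -1.18 ± 0.20 (adjusted p = 0.000519) and -1.34 ± 0.28 (adjusted p = 0.00258). Chuk, a kinase of the IκB complex, rose by 0.81 ± 0.21 in WT (adjusted p = 0.00624). Traf6, the ubiquitin ligase downstream of the IRAKs, rose by 0.72 ± 0.19 in WT (adjusted p = 0.00646) and by 0.76 ± 0.19 in KO (adjusted p = 0.0401, a call kept under 14 of 27 alternatives). The adaptor Myd88 is listed at 0 in all 16 libraries. Only that listing is given, and its cause was not tested. The gene overlaps Acaa1a on the opposite strand by 1736 bases, in its 5′ part. Where tags of Myd88 fall, and how reads of the overlap were counted, was not tested.

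Processing genes were called in both directions in WT, as were genes in general. Of 16 tested 7 rose and 3 fell (median 0.96), where 18% of all genes were called higher and 16% lower. In KO 2 rose (median 0.67), where 1.81% of all genes were called higher and 0.0896% lower. Whether the shares of this list differ from those of all genes was not tested. Aim2, a DNA sensor, rose by 3.0 ± 0.43 (adjusted p = 3.02e-05), Casp4, the murine caspase-11, by 1.72 ± 0.31 (adjusted p = 0.000319) and the pore protein Gsdmd by 1.55 ± 0.29 (adjusted p = 0.000372). In contrast Pycard, the inflammasome adaptor ASC, fell by 1.18 ± 0.22 (adjusted p = 0.000438), from 1893 ± 182 to 853 ± 222. Casp1, the protease that matures IL-1β and IL-18, fell from 440.0 ± 126 to 224 ± 112, with a log2 change of -1.04 ± 0.29 (adjusted p = 0.00896). In KO Pycard was at 1507 ± 211 and 2401 ± 788 (0.61 ± 0.22, adjusted p = 0.208). KO values of Casp1 were 399 ± 102 and 876 ± 215 (1.13 ± 0.29, adjusted p = 0.0482, a call kept under 12 of 27 alternatives). The interactions were 1.79 ± 0.31 for Pycard (adjusted p = 0.00068) and 2.17 ± 0.41 for Casp1 (adjusted p = 0.00124). Both were kept under all alternatives. Casp4 also rose in KO, by 1.33 ± 0.31 (limma adjusted p = 0.0285). This call was lost with equal library totals (0.0942), no filter (0.0563), only the groups compared (0.131) or array weights (0.0640). It was also lost without any 1 of several libraries (up to 0.132 without KO OXA replicate 2). The Casp4 interaction did not pass (-0.39 ± 0.44, adjusted p = 0.587), nor did that of Gsdmd (-0.87 ± 0.40, adjusted p = 0.145). That of Aim2 did (-1.93 ± 0.61, adjusted p = 0.0341), but this call was less firm. It was lost with no filter (0.0671), array weights (0.0636) or thinned reads (0.0707). It was also lost without any 1 of several libraries (up to 0.0794 without KO vehicle replicate 2). Il18, Casp1 and Pycard all fell in WT.

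Genes that NF-κB induces or that feed back on it, 13 tested, had 7 rises and 1 fall in WT (median 0.98). Of all genes 18% were called higher and 16% lower there. In KO the list had no call (limma, median 0.23), where 1.81% of all genes were called higher and 0.0896% lower. The interaction was called higher for 1, lower for 2 and not called for 10, so most were not shown to respond differently by genotype. Nfkbiz, a nuclear cofactor, rose by 1.79 ± 0.23 in WT (adjusted p = 7.85e-06) with an interaction of -1.66 ± 0.32 (adjusted p = 0.00158). Birc3 rose in WT by 1.21 ± 0.22 (adjusted p = 0.000262) and the feedback inhibitor Tnfaip3 by 1.68 ± 0.35 (adjusted p = 0.00111). Their interactions did not pass (-0.41 ± 0.31, adjusted p = 0.381, and -0.96 ± 0.50, adjusted p = 0.193). In KO Birc3 differed by 0.80 ± 0.22 (adjusted p = 0.0643) and passed with DESeq2 (0.0184). The neutrophil chemokine Cxcl2 had 0 reads in all WT vehicle libraries and values of 42.8, 15.4, 64.7 and 114 in WT OXA. It passed the filter on low values only through those WT OXA libraries. As a share of all reads, Cxcl2 in WT OXA stood 57.4-fold above a limit of 3 reads over the whole WT vehicle group. On the normalized values limma gave a log2 difference of 5.59 ± 1.02 (adjusted p = 0.000334), a size that depends on the pseudocount. KO libraries held 28 Cxcl2 reads with vehicle, all in replicate 2, and 16 with OXA, in replicates 2 and 4, and the interaction gave an adjusted p of 0.0149 (0.0523 with DESeq2). The fall was in Ccl20, a chemokine for dendritic cells and lymphocytes, which was at 27.5 ± 20.5 and 1.62 ± 2.59 in WT (adjusted p = 0.0268; named after its value was seen).

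**Figure D4:**
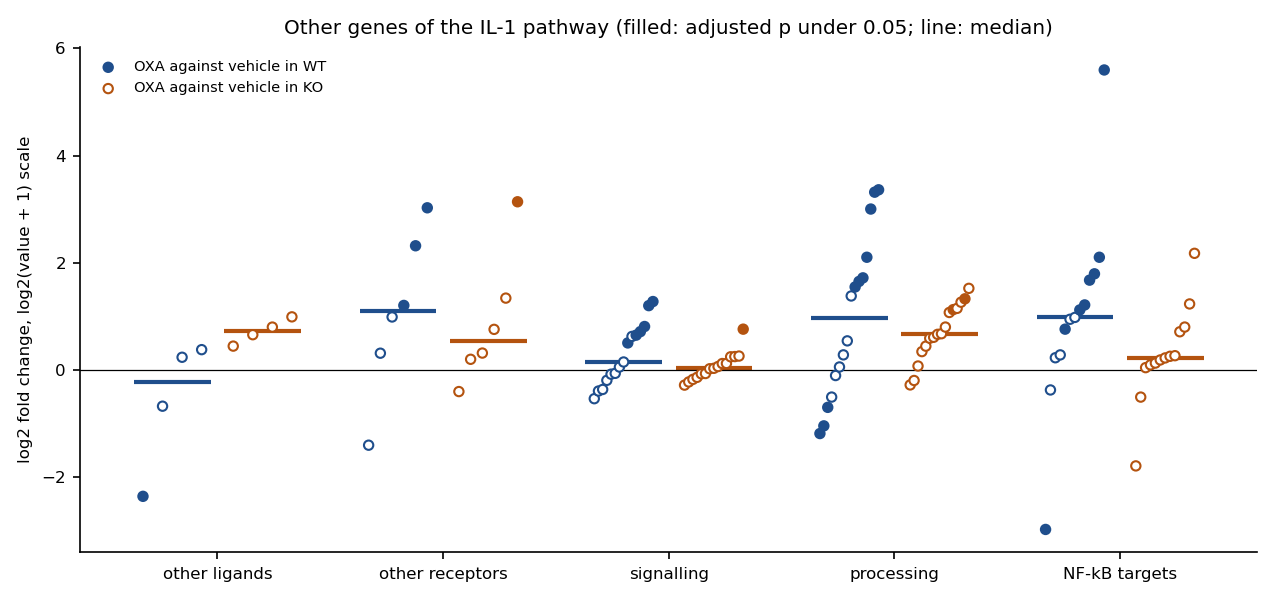
Log2 fold change of OXA against vehicle on the log2(value + 1) scale for each tested gene of 5 lists around the members, in WT (blue) and KO (orange), with filled points for an adjusted p under 0.05 and lines for medians. Filled points are frequent in WT and few in KO, and the processing list has called genes on both sides of 0 in WT. Over all genes tested 18% were called higher and 16% lower in WT, and 1.81% and 0.0896% in KO.

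Genes whose levels ran most like a member's are given by Pearson's r of log2(value + 1) over the 16 libraries, among 12308 genes; the libraries share their groups, so r describes a common pattern of group levels. For Il18 they were Fam25c (0.989), Tmem65 (0.985) and Lce3b (0.985), the last a gene of the cornified envelope, with means of 16678 and 2297 in WT (vehicle and OXA) and of 16876 and 24849 in KO. For Il1r2 they were Gng4 (0.985), the hair-type keratin Krt32 (0.983) and Ces1h (0.980), and for Il33 Dynap (0.966), Arcn1 (0.947) and Tmprss11d (0.937). For Il18bp they were Casp12 (0.938), the interferon-inducible GTPase Gbp8 (0.927) and the chemokine Ccl4 (0.920), and for Il1b Gins1 (0.957), Lpxn (0.926) and Klra2 (0.918). The closest genes to the other members were Ndufa1 for Il1rn (0.914), Elmod1 for Il1a (0.912), Kif21b for Il1rl1 (0.846), Stam2 for Il1rap (0.843) and Crim1 for Il1r1 (0.814).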

How the data were processed

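RNA of 16 mouse esophagus libraries was sequenced by CEL-Seq, which counts tags from transcript 3′ ends, per the labels' protocols. Per the submitters' processing notes, the authors used FastQC 0.11.5, Trim Galore, cutadapt 1.10, TopHat2 2.1.0, Bowtie2 2.2.6, GRCm38, HTSeq 0.6.1 and DESeq2 1.28.0; the annotation release, strand setting and use of molecular identifiers: not given in the sources used here. What the authors deposited is a non-negative signal per gene and library, the read count over that library's size factor. With a tolerance of 0.1 read, at least 99.99% of values in each library were whole reads, which gave depth (5.61 to 27.3 mega-reads).

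Genes were tested with limma 3.58.1 (R 4.3.3) on log2(value + 1) with group means over all 16 libraries, eBayes with a trend, and Benjamini-Hochberg adjustment over 16748 genes (those reaching 5 in 4 or more libraries), two-sided, threshold 0.05. The code was tested on simulated data. Alternatives were equal totals, quantile normalization, pseudocounts of 0.5 and 5, no filter (27009 genes), a minimum of 20 (13871 genes), only the groups compared, edgeR 4.0.16 and DESeq2 1.42.0 on recovered reads, array weights, thinned reads and each library left out. Members and lists were chosen with earlier results of these data known. All members and all genes of the 2 other family lists are named; of other lists, up to 4 with the smallest p in WT and 2 by interaction; and for each member the 3 genes most like it (the first alone for 5 of them). Promoters matched all 10 members by symbol. Titles carry codes read as animal codes, which differ between groups and pair no libraries.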

Additional observations from a re-analysis of the deposited data

Results flagged for a closer look

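In 40 groups of 4 libraries (10 genes in 4 groups), 4 had a single library far from the rest by Dixon's test, where chance gives about 1 in 20. Il1b in WT OXA had 1 library at 49.14, above 27.7 to 29.0. Il18 in KO vehicle had 1 at 1317.97, above 883 to 950.1. Il1r2 in KO vehicle had 1 at 1224.42, above 1011 to 1033. Il18bp in WT vehicle had 1 at 27.54, above 0 to 3.65. Both KO vehicle values came from the same library, KO vehicle replicate 4. The response to OXA differed between genotypes for Il18, by 2.9918 on the log2 scale, and for Il1r2, by 4.241.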

How the results depend on the processing

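Over the members, 1306 of the alternative values stayed on the same side of the threshold, 15 newly passed and 29 no longer passed. Among the 1306, 25 changed sign, none of them called in either setting. For OXA in KO, 318 genes were called; the count was 199 with only the groups compared, 722 with DESeq2, and 182 to 1027 with a library left out (182 without KO OXA replicate 2, 1027 without KO OXA replicate 4). Of the members 1 was called there; it was 0 with equal library totals, pseudocount 0.5, no filter, array weights and thinned reads, 2 with edgeR and with DESeq2, and 0 to 4 with a library left out (4 without KO OXA replicate 4). For KO against WT under vehicle 10 genes were called; the count was 5 with equal library totals and with no filter, 46 with DESeq2, and 3 to 12 with a library left out. The causes of these shifts were not tested. Il1b and Il18bp had few reads with vehicle (16 and 24 in WT), which limits the precision of their fold changes. No paired analysis was possible because the title codes pair no libraries.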
